A study of Mus musculus with 10 samples.

Results

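The genes described here are 9 components and regulators of the complement system, C1qa, C1qb, C1qc, C3, C4b, Cfb, Serping1, Cd55 and Cd59a, out of 46983 gene identifiers in the count table. They were chosen by symbol, from a list proposed with the counts and diet differences of the same mice in view, so their diet differences are given as a description of these genes. RNA was sequenced from CD31+ cells of the hearts of wild-type male C57BL/6J mice that started a diet at 8 weeks of age and ate it for 14 days. In the control diet group (5 mice), 11.6 kcal% of the energy came from fat, and in the ketogenic diet group (5 mice) 89.5 kcal%. All mice were unmodified animals, every library came from 1 mouse, and the cells were pulled from digested heart tissue with CD31 antibodies on magnetic beads, a step that also keeps other cells that carry CD31 or stick to the beads. The libraries held between 10885154 and 12206734 counted reads in the control diet group and between 11108020 and 12710861 in the ketogenic diet group.

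Complement is a cascade of plasma proteins that marks microbes, immune complexes and dying cells for removal. The classical route starts when C1q, a protein built from A, B and C chains, binds a target and its attached proteases cleave C4 and C2. The alternative route runs on C3 itself and on factor B, the protease encoded by Cfb, and all routes meet at the cleavage of C3. Most circulating complement is made by the liver, whereas C1q is made largely by macrophages and related myeloid cells. Endothelial cells (ECs), which face the plasma, protect themselves with inhibitors: the C1 inhibitor encoded by Serping1 is secreted, decay-accelerating factor (Cd55) takes the C3 convertases apart at the cell surface, and protectin (Cd59a) blocks assembly of the membrane attack complex.

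The labelled cell type was checked against marker genes. The 10 endothelial markers (Kdr was the highest) summed to between 4545 and 4874 CPM (counts scaled to a common library total) in the control diet group and between 4379 and 4956 CPM in the ketogenic diet group, and none of them was called between the diets. RNA of other cells was present in every library. The 8 mural cell markers summed to between 2435 and 2715 CPM over the 10 mice, the 8 fibroblast markers to between 587 and 702 CPM, and the 10 macrophage markers (Mertk was the highest) to between 302 and 759 CPM. Cardiomyocyte markers were between 624 and 786 CPM in the control diet group and between 738 and 1043 CPM in the ketogenic diet group. All 10 had a fitted value above 0, with a median log2 fold change of 0.34 and no call, and their part in the results below was not tested beyond a fit that included them as a covariate. Of the 4 hepatocyte markers, Serpina1a had no read in any mouse, and the list summed to at most 1.21 CPM in any library. In such bulk samples, fewer cells of a type and less RNA per cell cannot be told apart.

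The C1q genes lie side by side on the reverse strand of chromosome 4 and span 18675 bases together (GRCm38): C1qb (ENSMUSG00000036905.8) at chr4:136880129-136886187, C1qc (ENSMUSG00000036896.5) at chr4:136889804-136893065 and C1qa (ENSMUSG00000036887.5) at chr4:136895917-136898803. To show the sequence at their starts, the 2 promoters of the cluster that the RefSeq table (GRCm38.p6) holds are shown, from 250 bases before the annotated start to 50 bases after it, 5′ to 3′ on the strand of the gene. The C1qb window is chr4:136886151-136886450 and the C1qc window chr4:136892865-136893164. Capitals mark ACTTCCT, the reverse complement of AGGAAGT, a letter string of the kind bound by ETS factors such as the myeloid factor PU.1. It begins 53 bases before the start of C1qb and 195 bases before that of C1qc.
C1qb promoter: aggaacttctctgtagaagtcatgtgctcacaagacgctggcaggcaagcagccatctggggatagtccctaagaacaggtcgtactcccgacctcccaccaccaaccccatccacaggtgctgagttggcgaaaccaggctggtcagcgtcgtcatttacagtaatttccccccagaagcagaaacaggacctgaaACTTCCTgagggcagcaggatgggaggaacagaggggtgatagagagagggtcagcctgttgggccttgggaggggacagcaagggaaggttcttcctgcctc
C1qc promoter: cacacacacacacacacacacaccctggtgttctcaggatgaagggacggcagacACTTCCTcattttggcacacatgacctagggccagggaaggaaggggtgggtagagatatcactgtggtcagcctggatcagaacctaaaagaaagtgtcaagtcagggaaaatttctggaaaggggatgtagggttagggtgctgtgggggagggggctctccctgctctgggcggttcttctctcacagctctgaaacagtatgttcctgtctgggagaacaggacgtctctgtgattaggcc
The string, searched on both strands and chosen after the sequences had been seen, was found in 2 of the 5 members with a promoter in the table. Of all 32851 promoters of the same length, 9.35% held it. A match of letters is not evidence of binding.

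C1q transcripts were the most uneven of the 9 genes, with the widest spread among the mice on the control diet. All values by mouse are reads scaled by the TMM factors of edgeR to a common library size (normalized counts). For C1qb, mice 1 to 5 of the control diet group had 1227, 83.8, 57.9, 56.8 and 403 normalized counts, and mice 1 to 5 of the ketogenic diet group had 113, 102, 126, 252 and 61.0. For C1qa, the control diet values were 323, 8.57, 9.31, 16.8 and 31.1, and the ketogenic diet values 6.90, 15.7, 15.7, 25.2 and 16.4. For C1qc, the control diet values were 332, 5.71, 9.31, 16.8 and 67.3, and the ketogenic diet values 28.6, 9.40, 11.8, 60.2 and 21.8. Control mouse 1 was the highest of all 10 mice for each of the 3 chains, control mouse 5 the second for each, and ketogenic mouse 4 the third, so the groups overlapped for every chain. The mouse numbers name animals within a diet, and the labels do not say whether same-numbered mice are related.

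**Figure D1:**
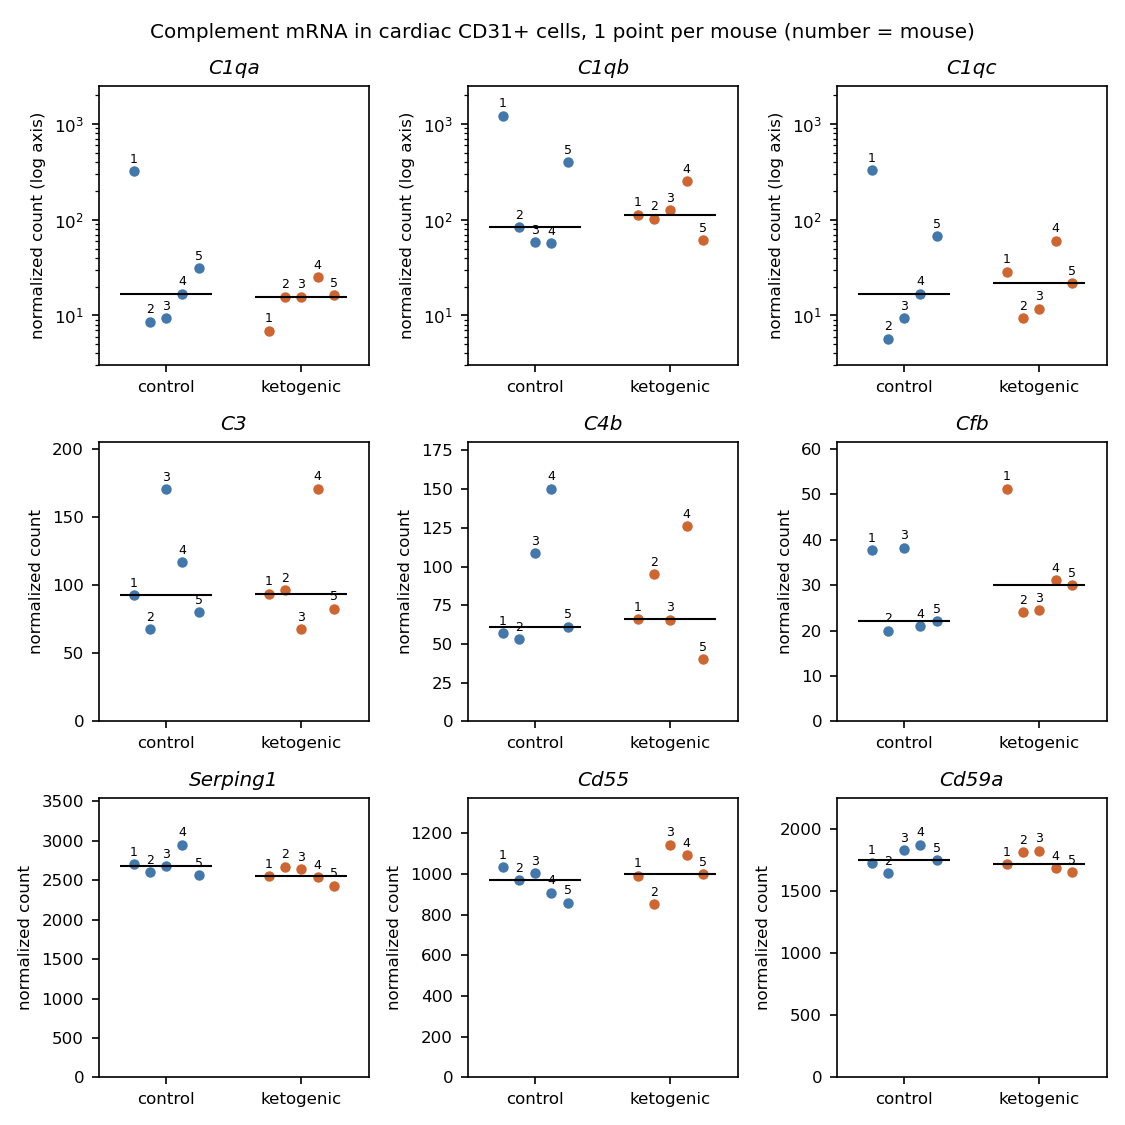
Normalized counts of the 9 genes in each mouse, with a log axis for the C1q chains and linear axes from 0 for the other genes. Points are mice with their numbers and horizontal lines are group medians. Control mouse 1 stands above all other mice in the 3 C1q panels (323, 1227 and 332 normalized counts), while Serping1, Cd55 and Cd59a vary little.

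Summed over their list, macrophage markers were also highest in control mouse 1, though single markers differed. Their summed level was 759 CPM in control mouse 1, 437 CPM in control mouse 5 and 420 CPM in ketogenic mouse 4, and between 302 and 422 CPM in the other mice. Within the list, Adgre1, which encodes the macrophage surface protein F4/80, had between 25.2 and 2371 normalized counts in the control diet group and between 31.3 and 239.8 in the ketogenic diet group. Mertk, an engulfment receptor and the most abundant of the list, had between 2066 and 2670 over both groups. It thus made up a large part of the lowest sums, and which cells its reads came from was not tested. Ms4a7 had between 3.81 and 257 in the control diet group and between 0 and 63.1 in the ketogenic diet group. None of the 10 was at 0 in all mice. Of the 9 tested markers, 7 had fitted values below 0 in the ketogenic diet group and none was called (median log2 fold change −0.45). Mrc1 (0.32) and Cd163 (0.20) had values above 0, and each was highest in a ketogenic diet mouse. Their maxima were 160.8 and 205.9 normalized counts there, against 95.4 and 137.6 in the control diet group.

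**Figure D2:**
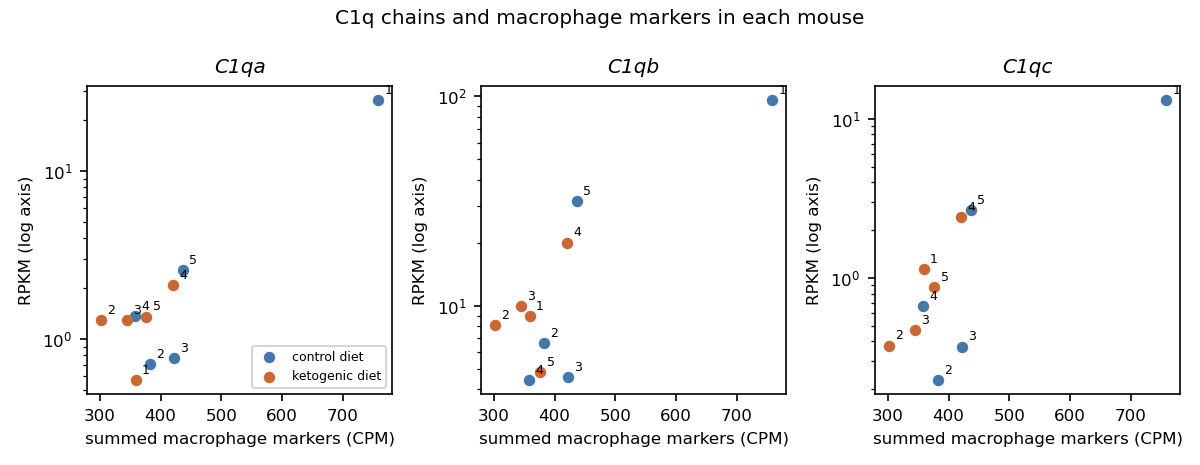
Level per length (RPKM, log axis) of each C1q chain against the summed CPM of 10 macrophage markers, 1 point per mouse, blue for control and orange for ketogenic diet. Control mouse 1 is at the upper right of each panel (759 CPM), control mouse 5 (437 CPM) and ketogenic mouse 4 (420 CPM) have the next highest C1q levels, and the other 7 mice lie between 302 and 422 CPM.

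The chains did not keep a fixed ratio to each other. Per length, C1qb was 3.23 to 15.7 times C1qa (median 6.98) and C1qc was 0.290 to 2.01 times C1qa (median 0.492) in the 10 mice. Several of these ratios rest on fewer than 20 reads of C1qa or C1qc in a library.

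The C1q means were lower in the ketogenic diet group, with an SD above the mean for each chain in the control diet group. C1qa averaged 77.7 ± 137 (SD, n = 5) normalized counts in the control diet group and 15.97 ± 6.49 (SD, n = 5) in the ketogenic diet group, a log2 fold change of −2.26 (SE 0.961, 95% interval −4.36 to −0.17) with an adjusted p of 0.243 by edgeR. C1qb averaged 366 ± 503 and 131 ± 72.1, a log2 fold change of −1.48 (SE 0.797, 95% interval −3.21 to 0.26) with an adjusted p of 0.360. C1qc averaged 86.3 ± 140 and 26.4 ± 20.4, a log2 fold change of −1.69 (SE 0.961, 95% interval −3.79 to 0.40) with an adjusted p of 0.384. None of the 3 chains was called. Without control mouse 1, the log2 fold changes were −0.04 for C1qa, −0.20 for C1qb and 0.09 for C1qc. With the macrophage marker score as a covariate, the fitted values were −0.07 for C1qa, 0.15 for C1qb and 0.44 for C1qc. The medians of the control and ketogenic diet groups were 16.8 and 15.7 normalized counts for C1qa, 83.8 and 113 for C1qb, and 16.8 and 21.8 for C1qc. The biological coefficient of variation that edgeR fitted was 0.922 for C1qa, 0.809 for C1qb and 0.973 for C1qc, higher than that of 99.9%, 99.8% and 99.9% of the tested genes.

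C3, C4b and Cfb, which supply parts of the C3 convertases, were low and variable. For C3 (ENSMUSG00000024164.15, chr17:57203970-57228136, reverse strand), the control diet mice had 92.8, 67.6, 171, 117 and 80.4 normalized counts and the ketogenic diet mice 93.6, 96.1, 67.7, 171 and 82.8. The highest mice of both groups were alike, and the lowest too. The log2 fold change was −0.05 (SE 0.285, 95% interval −0.67 to 0.58, adjusted p 0.953 by edgeR), an interval that holds changes of some size either way.

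For C4b (ENSMUSG00000073418.4, chr17:34728380-34743882, reverse strand), which encodes the complement C4 that C1s cleaves, the control diet mice had 57.2, 53.3, 109, 150.4 and 61.3 normalized counts and the ketogenic diet mice 66.0, 95.02, 65.7, 126 and 40.04. Control mouse 4 and ketogenic mouse 4 were highest and the groups overlapped (log2 fold change −0.13, SE 0.347, 95% interval −0.89 to 0.62, adjusted p 0.875 by edgeR). C4b has a near-identical neighbour, C4a, and reads from one can match the other. Of the 5737 different 50-base stretches of the C4b exons, the read length used, 1983 (34.6%) also occur in C4a. A pair of stretches shows the difficulty (GENCODE M21, GRCm38, 5′ to 3′ on the gene strand), the first from exon 24 of C4b at chr17:34734440-34734489 and shared with C4a, the second from exon 22 of C4b at chr17:34734879-34734928, where the C4a counterpart differs by T28A, counted from 1 at the 5′ end of the stretch with the C4b base first. Capitals mark the differing base.
C4b, shared with C4a: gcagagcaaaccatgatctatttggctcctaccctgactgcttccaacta
C4b, exon 22: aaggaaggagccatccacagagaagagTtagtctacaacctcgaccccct
C4a, counterpart: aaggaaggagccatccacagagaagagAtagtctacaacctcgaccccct
How reads matching both genes were handled is not given in the sources used here. C4a was counted at 4 to 17 reads per mouse, between 3.50% and 27.9% of the C4b reads of the same mouse (median 13.04%).

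For Cfb (ENSMUSG00000090231.10, chr17:34856374-34862518, reverse strand), the control diet mice had 37.8, 19.998, 38.3, 21.03 and 22.1 normalized counts and the ketogenic diet mice 51.2, 24.02, 24.5, 31.1 and 30.03. Ketogenic mouse 1 was the highest and the groups overlapped (log2 fold change 0.21, SE 0.281, 95% interval −0.40 to 0.83, adjusted p 0.732 by edgeR). Without ketogenic mouse 1 the log2 fold change was −0.01. In the annotation, 79.5% of the exonic bases of Cfb also belong to Gm20547, a same-strand gene model that runs across Cfb and its neighbour C2. Gm20547 was listed at 0 reads in every mouse, so the level of Cfb may leave out reads from the shared bases.

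The regulators were the steady members. Serping1 (ENSMUSG00000023224.12, chr2:84765387-84775444, reverse strand), the C1 inhibitor, had 2705, 2605, 2676, 2952 and 2559.6 normalized counts in the control diet mice and 2551, 2672, 2637, 2541 and 2432 in the ketogenic diet mice. The groups overlapped, with the highest mouse on control and the lowest on ketogenic diet. The means were 2699.5 ± 152 and 2567 ± 93.7 (SD, n = 5 each), a log2 fold change of −0.07 (SE 0.0428, adjusted p 0.401 by edgeR) with a 95% interval of −0.17 to 0.02.

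Cd59a (ENSMUSG00000032679.12, chr2:104095801-104115354, forward strand), the membrane-anchored inhibitor of the terminal pathway, had 1728, 1645, 1829.98, 1874 and 1746 normalized counts in the control diet mice and 1714, 1814, 1824, 1685 and 1649 in the ketogenic diet mice. The groups covered nearly the same range (log2 fold change −0.02, SE 0.0454, adjusted p 0.833 by edgeR, 95% interval −0.12 to 0.08). Cd55 (ENSMUSG00000026399.12, chr1:130439027-130462744, reverse strand) had 1036, 969, 1004, 909.5 and 859 normalized counts in the control diet mice and 992, 853, 1145, 1092 and 1001 in the ketogenic diet mice. Its groups overlapped too (log2 fold change 0.09, SE 0.0791, adjusted p 0.582 by edgeR, 95% interval −0.08 to 0.26). For these 3 regulators the intervals hold only small diet differences, whereas those of C1qb and C1qc hold both no difference and changes of several-fold. Fitted coefficients of variation of 0.0514 for Serping1 and 0.0530 for Cd59a were above those of 9.10% and 10.4% of the tested genes. That of Cd55 was 0.0880, above 33.4% of them.

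Read counts seldom exceeded the number of places where a read can start. Of 26930 genes with over 1000 merged exonic bases, 1 had more reads in a mouse than 2 per exonic base, that is, more than 1 read for each start position on each strand. Whether duplicates were removed is not given in the sources used here, and high counts near that limit would understate a difference. Serping1 reached 60.4% of its possible start positions, C1qb 52.3% (in control mouse 1), Cd59a 51.4%, C1qa 14.4%, Cd55 12.03% and C1qc 7.98%, with the other members below 2%. With a correction for occupied positions, the log2 fold change was −1.81 for C1qb, −2.37 for C1qa and −0.09 for Serping1, and no member was called.

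Per length (RPKM, reads scaled by gene length and library total, mean ± SD over the 10 mice), Serping1 was highest with 67.6 ± 3.20, followed by Cd59a with 40.1 ± 1.74, C1qb with 19.5 ± 28.2, Cd55 with 10.6 ± 1.03, C1qa with 3.85 ± 7.95, C1qc with 2.24 ± 3.93, C3 with 1.44 ± 0.528, C4b with 1.03 ± 0.445 and Cfb with 0.446 ± 0.148. The 3 regulators lay above C3, C4b and Cfb in this order. The order was read from these mice, so the neighbours are compared by counts of mice, with no test. Serping1 was above Cd59a in 10 of 10 mice, Cd59a above C1qb in 9, Cd55 above C1qa in 9, C3 above C4b in 9 and C4b above Cfb in 10. C1qb was above Cd55 in 3 mice, C1qa above C1qc in 7 and C1qc above C3 in 3, so these neighbours were not set apart by their spread. The places of the C1q chains rested on control mouse 1: without it, the means were 11.04 RPKM for C1qb, 1.34 for C1qa and 1.03 for C1qc, and C3 (1.46) came before C1qa, and C4b (1.06) before C1qc. The place of Cfb rested on its length: over the 579 exonic bases not shared with Gm20547, it would be at 4.45 ± 1.47 RPKM (SD, n = 10), above C4b (1.24 ± 0.538 per merged length) in 10 of 10 mice. The length of C4b was not cut in the same way for the stretches it shares with C4a. With the merged exon length of the annotation for every gene, shared bases included, the order of the means was the same as with the length the authors used. Some neighbours lay closer: the means were 97.2 for Serping1 and 83.0 for Cd59a, and 1.24 for C4b and 0.912 for Cfb. The counts of mice for the neighbours in the order hold for the authors' length only. C1qa ranged 46.3-fold and C1qc 57.6-fold between the lowest and the highest mouse.

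**Figure D3:**
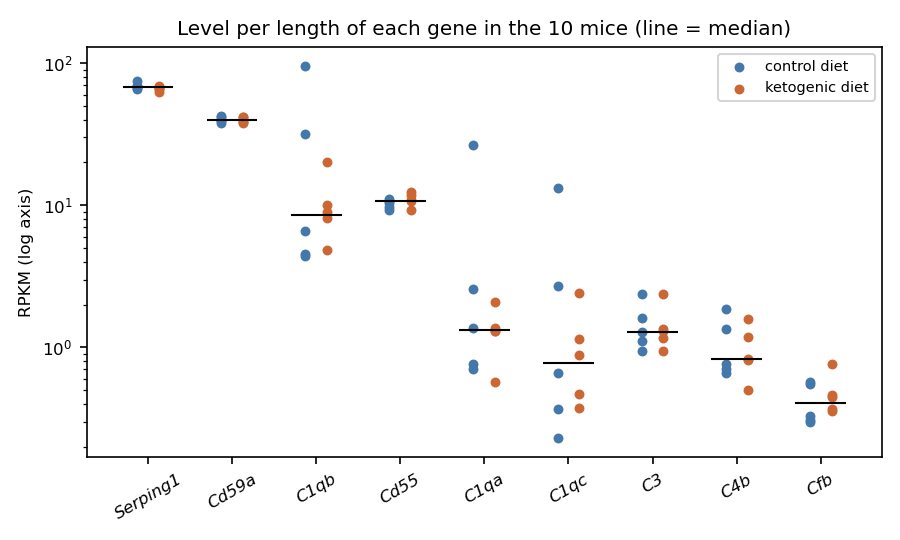
Level per length (RPKM, log axis) of the 9 genes in order of their mean, 1 point per mouse, blue for control and orange for ketogenic diet, with a line at the median of the 10 mice. Serping1 (67.6) and Cd59a (40.1) form narrow bands, whereas C1qb, C1qa and C1qc spread over more than a decade.

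Across the members, 9 of 9 passed the filter on low counts and 0 were called at an adjusted p under 0.05 by edgeR. Over all 15949 tested genes, 1.34% were called. At an unadjusted p under 0.05 there was 1 member, C1qa, beside 17.8% of all tested genes. DESeq2 and limma also called 0 members, but DESeq2 gave no adjusted p for C1qa, which it therefore could not call. Fitted values were below 0 for 7 members and above 0 for 2, and 51.4% of all tested genes were below 0. The median log2 fold change was −0.07 over the members and −0.0057 over all tested genes. In 0 of the 9 genes did the groups fail to overlap, as against 4.34% of all tested genes.

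**Figure D4:**
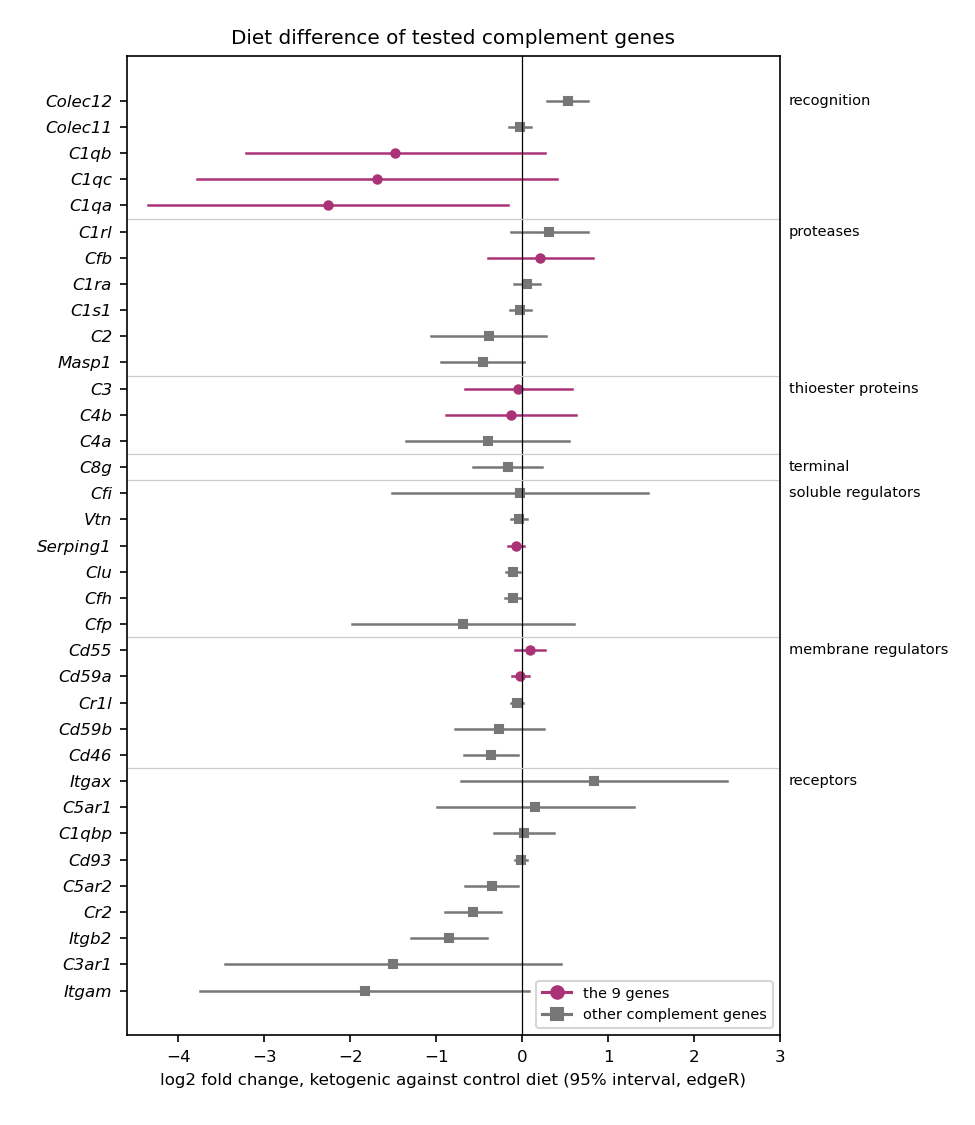
Log2 fold change of ketogenic against control diet with its 95% interval from edgeR for the 35 tested complement genes, ordered by role, purple circles for the 9 genes and grey squares for the others. Colec12 (0.53) is the gene called, Serping1, Cd55 and Cd59a lie close to 0 with short intervals, and the C1q chains have the wide intervals given in the text.

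The wider complement system was read from a list of 45 other genes in 7 roles. Of these, 26 were tested, 1 was called higher on the ketogenic diet (0.809% of all tested genes were) and 0 lower (0.527%), with 7 at an unadjusted p under 0.05 by edgeR (17.8% of all tested genes) and 3 called by DESeq2 (5.11% of all tested genes), Colec12, Itgb2 and Cr2. Of the genes not tested, 17 had at most 9 reads in any mouse. The gene called was Colec12, a scavenger receptor with a collectin domain. Its normalized counts were 165, 137, 183, 195 and 157 in the control diet mice and 219, 268, 250.05, 250.4 and 221 in the ketogenic diet mice, with no overlap. The log2 fold change was 0.53 (SE 0.109, 95% interval 0.29 to 0.77, adjusted p 0.0392 by edgeR). It was no longer called with fibroblast markers as a covariate (log2 fold change 0.44, adjusted p 0.194), with cardiomyocyte markers (0.31, adjusted p 0.440), with macrophage markers (0.53, adjusted p 0.0632), with upper-quartile scaling (0.52, adjusted p 0.0514), or without each of 8 mice in turn (adjusted p 0.0508 to 0.0840). It stayed called without control mouse 4 or without ketogenic mouse 2.

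By role, the tested genes with the highest level beside the members had fitted log2 differences between −0.40 and −0.01. Colec11, a soluble collectin with a mean of 108 RPKM, had a log2 fold change of −0.03, and C1s1, the C1 protease that cleaves C4, one of −0.02. Cd93, an endothelial receptor once described as binding C1q, had 114 RPKM and a log2 fold change of −0.01. Cr1l, a membrane regulator related to complement receptors, had one of −0.06, C8g of the terminal pathway one of −0.17 (5 of the 7 terminal genes had at most 9 reads in any mouse), and C4a one of −0.40 (adjusted p 0.664). Clu, a secreted inhibitor of the terminal complex, had a log2 fold change of −0.10 (adjusted p 0.189), and all 6 tested soluble regulators, Serping1 among them, had fitted values below 0, with none called. None of these genes was called by edgeR.

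Among the complement receptors, the 2 lowest adjusted p-values belonged to leukocyte genes (chosen after their values were seen). Itgb2, the shared β chain of complement receptors 3 and 4, had 1971, 1115, 1502, 1346 and 839 normalized counts in the control diet mice and 889.9, 551, 737, 903 and 681 in the ketogenic diet mice, with overlap (log2 fold change −0.85, adjusted p 0.0648 by edgeR). It was called by DESeq2 (adjusted p 0.0136), by edgeR without a filter on low counts (0.0355), with the replicate block (0.0359) and without control mouse 5 (0.0287). The α chains of these receptors were low, with a mean of 30.5 reads for Itgam and 21.1 for Itgax, against 1042.7 for Itgb2. Their log2 fold changes went opposite ways, −1.83 for Itgam (adjusted p 0.301 by edgeR) and 0.83 for Itgax (adjusted p 0.570 by edgeR). Cr2, the B cell receptor for C3 fragments, had 192, 117.1, 147, 152 and 154 against 99.5, 116.95, 77.5, 111 and 107, where the groups just failed to overlap (log2 fold change −0.57, adjusted p 0.0781 by edgeR and 0.0196 by DESeq2). Of 7 lymphocyte markers, 3 had fitted values below 0 and 4 above 0 (median 0.08 on the log2 scale). The B cell gene Cd79a was the marker called (log2 fold change −0.46, adjusted p 0.0221 by edgeR). The T cell genes Cd3e (0.11, adjusted p 0.814 by edgeR) and Cd8a (0.96, adjusted p 0.440 by edgeR) had values above 0 and were not called. Cd8a was near the floor, with 0 to 11.6 normalized counts on the control diet and 5.88 to 23.7 on the ketogenic diet. None of the lymphocyte markers was at 0 in all mice, and their part in the values of Cr2 and Itgb2 was not tested. C3ar1, the receptor for C3a, was highest in the mice that were high for C1q, with 586 normalized counts in control mouse 1, 137 in control mouse 5 and 150.5 in ketogenic mouse 4, and between 18.6 and 41.4 in the other 7.

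Covariation over the 10 mice was read from log2 CPM centred within each diet, with an exact two-sided permutation test over the 14400 orders of mice within diets. Of 63 relations (36 between members and 27 between a member and a marker score), 0 had an adjusted p under 0.05 for Pearson r or Spearman rho. Highest among members were the C1q chains: C1qb and C1qc had r = 0.896 (p = 0.0110, adjusted 0.144) and rho = 0.830. Without the 2 mice farthest from the median of the first-named measure, here control mice 1 and 4, r was 0.815. C1qa and C1qc had r = 0.878 (p = 0.0113, adjusted 0.144), rho = 0.867 and r = 0.599 without the 2 farthest for C1qa, control mice 1 and 2. C1qa and C1qb had r = 0.868 (p = 0.0164, adjusted 0.172), rho = 0.794 and r = 0.6997 without control mice 1 and 2. With the macrophage marker score, r was 0.860 for C1qc (exact permutation p = 0.00618, adjusted 0.144), 0.828 for C1qb and 0.799 for C1qa, and without the 2 farthest mice 0.567, 0.506 and 0.353. Serping1 and Cd59a had r = 0.794 (p = 0.0115, adjusted 0.144), rho = 0.770 and r = 0.659 without the farthest 2, and with the endothelial score r was 0.678 and 0.694. C3 and C4b had r = 0.754 (adjusted 0.172), rho = 0.818 and r = 0.686. All values share the library of the mouse and its scaling.

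**Figure D5:**
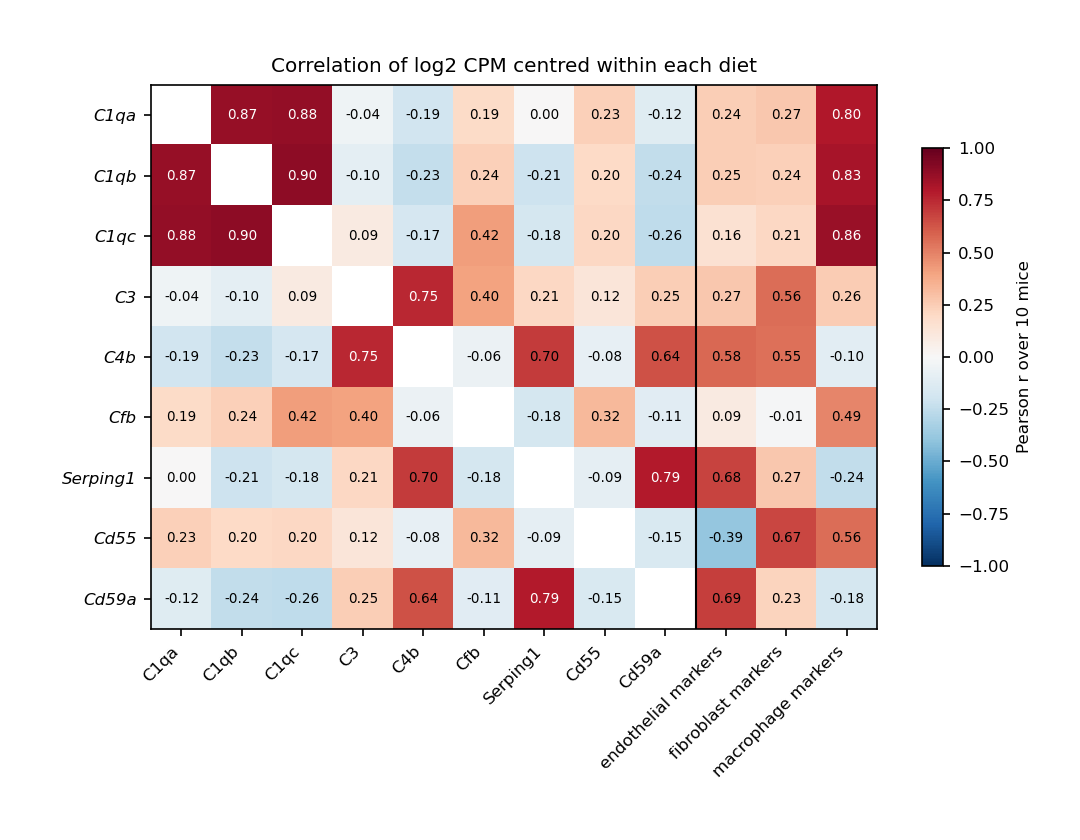
Pearson r over the 10 mice of log2 CPM centred within each diet, for each pair of the 9 genes and for each gene with the endothelial, fibroblast and macrophage marker scores (colour scale from −1 to 1). The C1q block (0.868 to 0.896) and its macrophage column (0.799 to 0.860), the pair C3 and C4b (0.754) and the pair Serping1 and Cd59a (0.794) hold the highest values.

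The genes most like each member over the 10 mice were taken from some 10880 tested genes whose counts averaged 100 or more, by the same Pearson r, as a description. The highest r among so many genes and only 10 mice is large by selection, and no chance level was computed. It was between 0.946 and 0.966 for every member, so the lists do not tell shared function from chance. For C1qb they began with Fcrls (0.957), an Fc receptor-like gene of myeloid cells, and C3ar1 (0.933). Slc25a35 (0.914), Dpm2 (0.897) and Zfp207 (0.891) came next for C1qb. For C1qc they were led by Slc25a35 (0.966), C3ar1 (0.941), Acp5 (0.916), the acid phosphatase of osteoclasts and macrophages, Tbrg4 (0.907) and Cd72 (0.906), and for C1qa by Cyth4 (0.957), Zfyve21 (0.939), Gas7 (0.935), Dnajc7 (0.930) and the chemokine gene Ccl2 (0.919). For Cfb they were Gpr183 (0.963), Ticam1 (0.917), an adaptor of Toll-like receptor signalling, Ppm1h (0.903), the activation marker Cd69 (0.892) and Rassf5 (0.890), for C3 Adgrg3 (0.948) led, and for C4b Med1 (0.948). For the regulators Mmgt2 (0.956) came first for Serping1, Lrrc42 (0.965) for Cd55 and Gm10093 (0.946) for Cd59a, with Serinc1 among the 5 of both Serping1 (0.929) and Cd59a (0.945).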

How the data were processed

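Cardiac CD31+ cells of 5 control diet and 5 ketogenic diet mice were sequenced as unstranded SMART-Seq v4 libraries with single reads of 50 bases. The authors aligned reads to mm10 with STAR 2.3 and counted them with HTSeq 0.6.0 after bcl2fastq 2.17.1.14, per the submitters' processing notes, and deposited raw counts per gene and RPKM, the same counts scaled by gene length and total. Of 46983 identifiers, 46488 had a symbol and 37902 the same version in GENCODE M21.

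From the counts, edgeR 4.0.16 (TMM, default expression filter, quasi-likelihood F-test, R 4.3.3) tested diet over 15949 genes. Genes with a Benjamini-Hochberg adjusted p under 0.05 were called, and fold changes are ketogenic over control. DESeq2 1.42.0, limma 3.58.1 on log2(RPKM + pseudocount), other scalings and filters, a replicate block, marker covariates and each mouse left out were alternatives. A correction for start positions, the merged exon length, the unshared bases of Cfb and the order of levels without control mouse 1 were added after the data were seen. Scripts were tested on simulated data.

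Members and gene lists were chosen with earlier results of these data known. Named were the members, complement genes called or highest in RPKM per role, and the 5 genes most like each member. Marker scores are mean standardized log2 CPM. Bead isolation and separate animals are stated by the authors. P-values cover the spread between mice. The values of 1 lymphocyte marker and the summed level of that list are not reported here.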

Additional observations from a re-analysis of the deposited data

Results flagged for a closer look

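In groups of 5 mice, the gap of the highest or lowest mouse to its neighbour was compared with the range of the group, against a critical ratio of 0.71. Control mouse 1 was the highest of its group with a ratio of 0.928 for C1qa, 0.811 for C1qc and 0.803 for the summed macrophage markers. Ketogenic mouse 1 was the highest of its group for Cfb (0.741), and ketogenic mouse 4 for C3 (0.725). These are 5 of 26 groups examined. Chance marks about 1 in 20, or 1.3 of them, and the C1q chains and macrophage markers are not independent of each other.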

How the results depend on the processing

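The call count of the 9 genes was 0 under every alternative run, and the 63 correlations gave 0 adjusted p-values under 0.05. For C1qa the DESeq2 run could not give a call, because it returned no adjusted p for that gene. Of all tested genes, 213 were called, 815 by DESeq2, 113 with a replicate block, 13 with cardiomyocyte and 41 with fibroblast markers as a covariate, and 86 to 492 with 1 mouse left out. Of the other complement genes 1 was called (Colec12), 2 without a filter and 3 by DESeq2, 0 with upper-quartile scaling or with cardiomyocyte, macrophage or fibroblast markers as a covariate, and 0 to 1 with 1 mouse left out. With the replicate block it was 1, Itgb2 (log2 fold change −0.82, adjusted p 0.0359) in place of Colec12 (adjusted p 0.0782). The labels do not say whether same-numbered mice share more than a number, and the paper calls the diet groups littermates. Correlations of their deviations were −0.1341 to 0.0936, which cannot settle this. The replicate block gave log2 fold changes of −0.87 for C1qa, −0.61 for C1qb and −0.77 for C1qc.

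Directions turned with macrophage markers as a covariate for C1qb (0.15), C1qc (0.44) and C3 (0.0457), with cardiomyocyte markers for C1qc (0.0364) and with fibroblast markers for Cd55 (−0.0223). With 1 mouse left out, log2 fold changes ran from −2.55 to −0.04 for C1qa, −1.86 to −0.20 for C1qb, −2.25 to 0.0926 for C1qc, −0.0133 to 0.36 for Cfb, −0.31 to 0.20 for C3, −0.37 to 0.16 for C4b, −0.09 to −0.04 for Serping1, 0.05 to 0.15 for Cd55, −0.0425 to 0.00075 for Cd59a and 0.47 to 0.59 for Colec12. The cause of these changes was not tested. A filter of at least 10 reads in every mouse tested 7 of the 9 genes, leaving out C1qa and C1qc. Low counts limit C1qa, C1qc, Cfb, C3 and C4b, and occupied start positions limit Serping1, Cd59a and C1qb.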
